A study of Homo sapiens with 15 samples.

Results

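EZH1, EZH2, EED, SUZ12, BMI1, CBX2, CBX7, CBX8 and RNF2 encode core subunits of the Polycomb repressive complexes. The 9 genes were taken by name, through their Ensembl identifiers, from the deposited count table of cultured human cells, which holds 57736 genes. Each name matched an identifier in the table. All 9 passed the filter on low counts that left 15994 genes for testing. No measured value entered the rule that picked them, but earlier results of these data were known when they were chosen.

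RNA-seq libraries were made from total RNA of IMR90, a diploid fibroblast line of human fetal lung that can enter senescence, a lasting arrest of cell division. The 15 libraries form 5 groups of 3, and 4 of the groups hold senescent cells. Senescent cells with the short hairpin RNA labelled shTXNRD1, which targets the transcript of thioredoxin reductase 1 (TXNRD1), were compared with senescent control cells, senescent cells given Tri-1, an inhibitor of the TXNRD1 enzyme, with senescent cells given DMSO, its solvent, and senescent control cells with growing control cells. The series asks what TXNRD1 does in senescent cells. How senescence was brought about, how much Tri-1 was given and for how long, which construct the hairpin's controls carried and whether the libraries of a group came from separate cultures is not stated in the labels, so p-values measure only the spread between these samples.

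Polycomb complexes keep developmental and cell cycle genes silent by marking their histones. Polycomb repressive complex 2 (PRC2) methylates lysine 27 of histone H3 through EZH2 or its relative EZH1, each held with EED, which binds the finished mark and stimulates the enzyme, and SUZ12, the scaffold. Canonical Polycomb repressive complex 1 (PRC1) joins RNF2 (RING1B), the ligase that attaches ubiquitin to histone H2A, with a PCGF protein such as BMI1 (PCGF4) and a CBX protein such as CBX2, CBX7 or CBX8, whose chromodomain binds the PRC2 mark. In fibroblasts the complexes are known for silencing the INK4 locus, which holds the cell cycle inhibitor genes CDKN2A and CDKN2B, and EZH2 is known to be expressed in dividing cells and EZH1 in resting ones.

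The libraries held 18033076 to 28909046 counts each, with a median of 21156213. The hairpin's target TXNRD1 had 22.6 ± 2.30 CPM (counts scaled to library size, here by TMM) in shTXNRD1 cells, against 515 ± 12 CPM in senescent control cells (SD, n = 3 each), a 22.7-fold lower level. Tri-1 acts on the protein, and TXNRD1 had 431 ± 11.6 CPM in Tri-1 cells and 408 ± 19.3 CPM in DMSO cells. Senescent control cells had 3.18-fold less TXNRD1 than growing control cells. The 9 fibroblast markers summed to between 11570 and 21750 CPM in a library. The 5 endothelial, 6 leukocyte and 6 epithelial markers summed to between 51.3 and 171, 15.3 and 93.1 and 45.1 and 82.3 CPM. CD3E, SFTPC and KRT5, which define T cells, alveolar epithelium and basal epithelium, were at 0 in all 15. Other markers of these lists were detected. Over all libraries TEK (endothelial) had 34727 counts, CD68 (leukocyte) 18403, and KRT18 and KRT8 (epithelial) 16315 and 2357. Of the fibroblast markers, 6 of 9 were called lower and 2 higher in shTXNRD1 cells than in senescent control cells. Of all genes tested 24.8% were called lower and 25.8% higher there. In Tri-1 against DMSO cells 6 of the 9 markers were called lower and 1 higher. Of all 15994 genes tested 1954 were called lower and 1222 higher there. The part of these shifts in the results was not tested.

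Depth was ample for most of the 9 genes. EZH1 had 651 to 1578 counts in a library, and EZH2 had 145 to 704. CBX2 rested on 10 to 79 counts in a library and CBX8 on 50 to 96, so their values carry the largest counting error. SUZ12 and BMI1 have relatives that could take or give reads, since the treatment of shared reads in the counting is not stated. The pseudogene SUZ12P1 held 2038 counts over all libraries beside 17821 for SUZ12, and COMMD3-BMI1, a readthrough transcript on the strand of BMI1, held 2584 beside 15590 for BMI1.

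Libraries also differed in base composition within groups, and in 3 of the 5 groups 8 of the 9 genes differed with it. The mean GC content of the transcripts behind the counts was 47.0% in shTXNRD1 replicate 3, against 47.8% and 48.5% in the other shTXNRD1 libraries. It was 47.9% in DMSO replicate 1, against 48.6% and 48.7% in the others of that group, and 47.4% in growing control replicate 1, against 48.4% and 48.7%. In each of these 3 libraries the 5 genes with GC-poor transcripts (EZH2, EED, SUZ12, BMI1 and RNF2, at 38.1% to 44.6% GC) were at the highest level of their group, and the 3 genes with GC-rich transcripts (CBX2, CBX7 and CBX8, at 59.6% to 60.8%) were at the lowest. EZH1, at 48.7% GC beside a median of 48.5% over all genes tested, was in the middle in 2 of the 3 libraries and lowest in the DMSO library. In the senescent control and Tri-1 groups, whose libraries spanned 48.2% to 48.9% and 48.8% to 49.1%, the pattern was incomplete. In the senescent control library of lowest GC, EZH2, EED and RNF2 were highest and CBX2 and CBX7 lowest. SUZ12 was lowest there too, and BMI1 and CBX8 were in the middle. In the Tri-1 library of lowest GC, SUZ12 was highest and CBX7 lowest. EZH2 was lowest there too, and EED, BMI1, CBX2, CBX8 and RNF2 were in the middle. Changes are also given after a correction for GC content, and without the lowest-GC library of the shTXNRD1, DMSO and growing control groups. Leaving those 3 libraries out was a choice made after seeing the data. It keeps in shTXNRD1 replicate 2, lower in GC than the DMSO library left out.

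**Figure D1:**
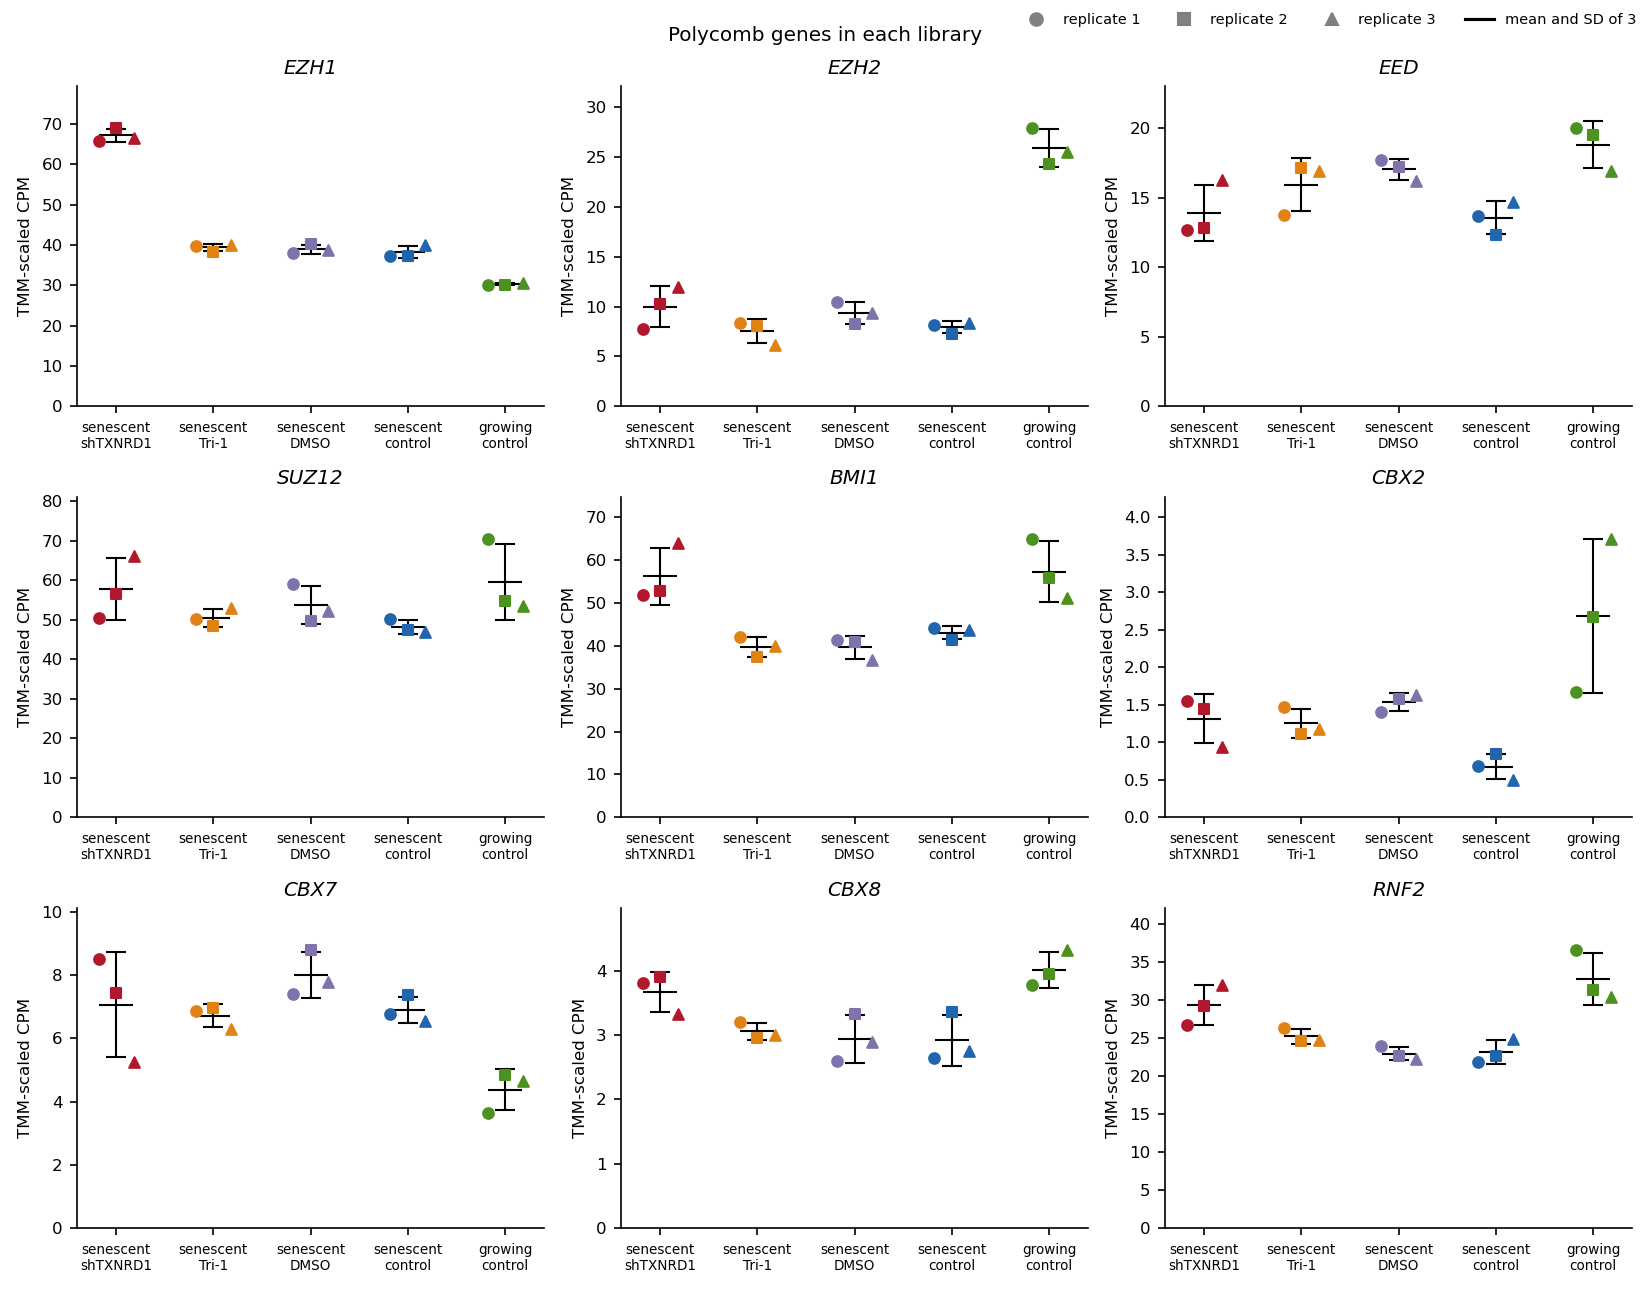
TMM-scaled CPM of each gene (vertical axes, starting at 0) in every library, with the 3 replicates of a group as circle, square and triangle and the mean and SD as black bars. EZH1 is highest in the 3 shTXNRD1 libraries, at 65.9 to 69.0 CPM, and EZH2 in the 3 growing control libraries, at 24.3 to 27.9 CPM.

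Compared per kilobase of exon, BMI1 had the highest level of the 9 genes in senescent control cells, at 10.1 CPM per kb, followed by SUZ12 at 7.36, RNF2 at 5.68 and EZH1 at 5.48 CPM per kb. EED at 1.94 and EZH2 at 1.76 CPM per kb came next, and CBX7 at 0.924, CBX8 at 0.70 and CBX2 at 0.119 CPM per kb were lowest. In growing control cells EZH2, at 5.72 CPM per kb, stood above EZH1, at 4.33 CPM per kb. The PRC1 readers CBX2, CBX7 and CBX8 thus lay below the ligase RNF2 and its partner BMI1 in both groups.

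Senescence was the comparison with the most calls among the 9 genes. Senescent control cells had lower EZH2, CBX2, RNF2, EED, CBX8, BMI1 and SUZ12 and higher EZH1 and CBX7 than growing control cells, so 7 genes fell and 2 rose. All 9 were called by the edgeR quasi-likelihood test at a Benjamini-Hochberg adjusted p under 0.05. Of all genes tested 56.9% were called, 27.4% higher and 29.5% lower. The libraries of the groups did not overlap for any of the 9 genes, as was the case for 63.6% of all genes. The median log2 change of the 9 genes was -0.46, against 0.032 over all genes tested.

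EZH2, the PRC2 enzyme of dividing cells, had 8.15, 7.27 and 8.40 CPM in the senescent control libraries, against 27.9, 24.3 and 25.5 CPM in the growing control libraries. Every senescent library was below every growing one by a wide margin. The level was 3.26-fold lower, with a log2 change of -1.70 ± 0.15 (SE, adjusted p = 2.8e-07). EZH1, the other PRC2 enzyme, had 37.3, 37.4 and 40.1 CPM in senescent control libraries and 30.2, 30.04 and 30.6 CPM in growing control libraries. It moved the opposite way in all 3 libraries and varied little within a group. Its level was 1.26-fold higher in senescent cells, a log2 change of 0.34 ± 0.053 (adjusted p = 9.1e-05).

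EED and SUZ12, the partners of both enzymes, changed less than EZH2. EED averaged 13.6 ± 1.2 CPM in senescent control cells and 18.8 ± 1.67 CPM in growing control cells, a log2 change of -0.47 ± 0.12 (adjusted p = 0.0033). SUZ12 had 50.2, 47.3 and 47.0 CPM in senescent control libraries, against 70.5, 54.7 and 53.4 CPM in growing control libraries, where the first value comes from the library of lowest GC. The log2 change of SUZ12 was -0.31 ± 0.11 (adjusted p = 0.033), and this call was the weakest of the 9. It ended with the GC correction (-0.096, adjusted p = 0.11), without growing control replicate 1 (-0.17, adjusted p = 0.17) and without senescent control replicate 2 or 3 (adjusted p = 0.079 and 0.083), and its adjusted p ranged between 0.014 and 0.17 over 18 alternatives.

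Among the PRC1 genes, CBX2 had 0.689, 0.840 and 0.50 CPM in senescent control libraries and 1.67, 2.67 and 3.71 CPM in growing control libraries. The lowest growing library still lay above the highest senescent one, although the growing libraries spread widely. CBX2 was 3.92-fold lower in senescent cells (log2 change -1.97 ± 0.30, adjusted p = 6.4e-05). RNF2 averaged 23.1 ± 1.60 CPM in senescent control cells and 32.7 ± 3.35 CPM in growing control cells (log2 change -0.50 ± 0.087, adjusted p = 0.00020). BMI1, which stimulates the ligase, averaged 43.1 ± 1.54 CPM in senescent control cells and 57.3 ± 7.04 CPM in growing control cells (log2 change -0.41 ± 0.098, adjusted p = 0.0025).

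CBX7 and CBX8, which compete for the same place in PRC1, moved in opposite directions. CBX7 had 6.77, 7.37 and 6.55 CPM in senescent control libraries, against 3.65, 4.85 and 4.65 CPM in growing control libraries. Its level was 1.57-fold higher in senescent cells (log2 change 0.65 ± 0.16, adjusted p = 0.0030). CBX8 had 2.64, 3.36 and 2.75 CPM in senescent control libraries and 3.77, 3.95 and 4.32 CPM in growing control libraries. Its log2 change was -0.46 ± 0.13 (adjusted p = 0.0091), a call that ended when senescent control replicate 1 was left out (adjusted p = 0.0503) or when the 6 libraries were fitted alone (adjusted p = 0.061), within a range of 0.00020 to 0.061 over 17 alternatives.

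The GC correction kept 8 of the 9 calls and all 9 directions, and it changed sizes by over 1.5 times for 6 genes. The log2 change became -0.27 for EED, -0.096 for SUZ12, -0.20 for BMI1, -0.30 for RNF2 and 0.27 for CBX7, all closer to 0, and -0.85 for CBX8, farther from it. EZH2 (-1.56), EZH1 (0.37) and CBX2 (-2.37) stayed near their values. Without growing control replicate 1, shTXNRD1 replicate 3 and DMSO replicate 1 all 9 genes were called, with SUZ12 at -0.17 (adjusted p = 0.030).

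**Figure D2:**
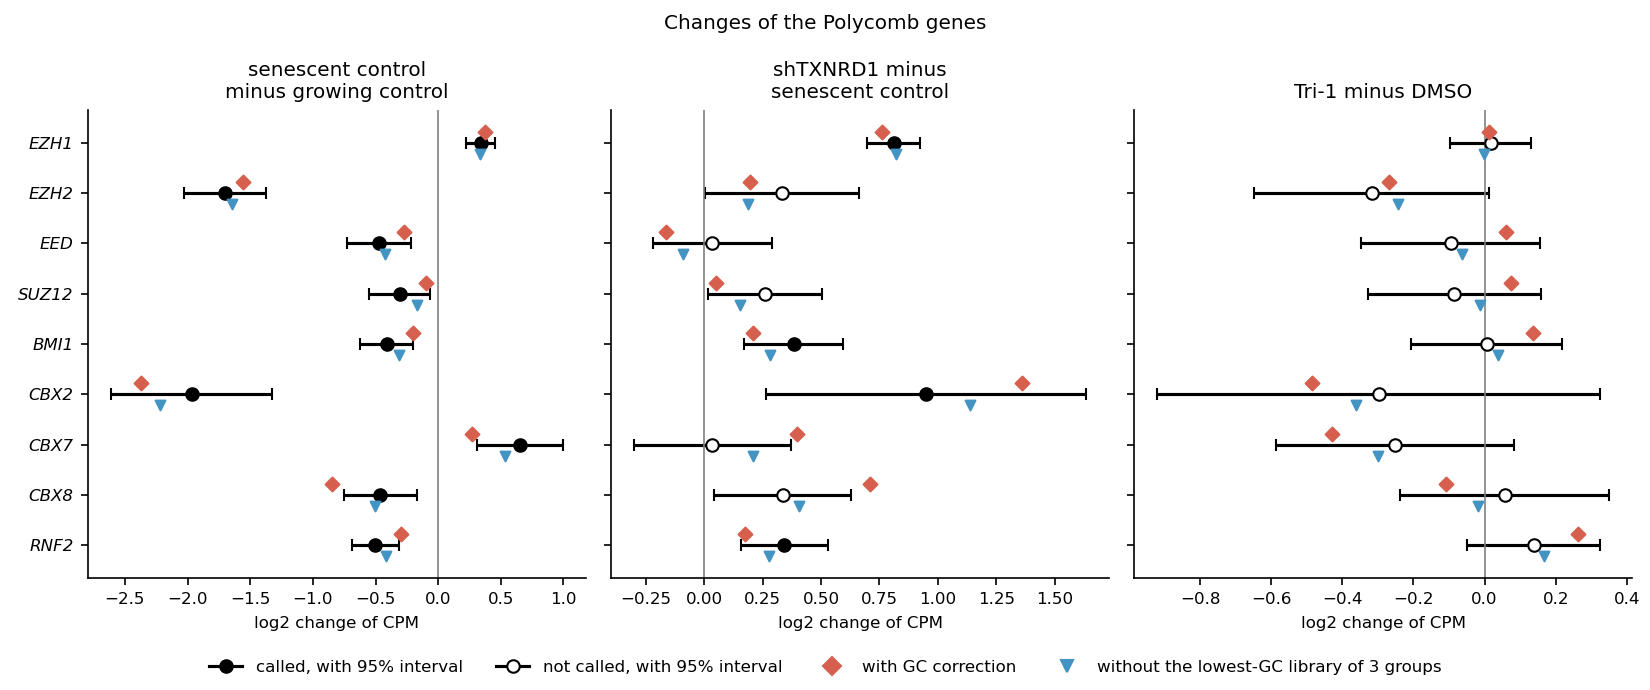
Log2 change of CPM (horizontal axes, with a separate scale in each panel) of the 9 genes in senescent control minus growing control, shTXNRD1 minus senescent control and Tri-1 minus DMSO, with the 95% interval of the fit as a bar and filled circles for called genes. Diamonds show the value with GC correction and triangles the value without the lowest-GC library of the growing control, shTXNRD1 and DMSO groups; with the GC correction EZH1 is at 0.37, 0.76 and 0.013, against 0.34, 0.81 and 0.017 without it, and CBX2 at -2.37, 1.36 and -0.49, against -1.97, 0.95 and -0.30.

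Promoter windows with E2F-like letters are shown because EZH2 fell together with genes of the E2F and RB pathway, which is described further on. RefSeq (build GRCh38.p14) gave windows of 250 bases before to 50 bases after the start for 7 of the 9 genes, all but CBX2 and CBX8, with a pair of windows each for EZH2 and BMI1. E2F-like letters were searched as TTTGGCGC, TTTCCCGC, TTTGCCGC and TTTCGCGC, the CHR element as TTTGAA and the CCAAT box as CCAAT, on both strands, and no match overlapped another. The 3 windows with E2F-like letters follow 5′ to 3′ along the gene, for EZH2 at chr7:148884242-148884541 (minus strand), for EZH1 at chr17:42744991-42745290 (minus strand) and for SUZ12 at chr17:31936757-31937056 (plus strand), with all matches in capitals.
EZH2: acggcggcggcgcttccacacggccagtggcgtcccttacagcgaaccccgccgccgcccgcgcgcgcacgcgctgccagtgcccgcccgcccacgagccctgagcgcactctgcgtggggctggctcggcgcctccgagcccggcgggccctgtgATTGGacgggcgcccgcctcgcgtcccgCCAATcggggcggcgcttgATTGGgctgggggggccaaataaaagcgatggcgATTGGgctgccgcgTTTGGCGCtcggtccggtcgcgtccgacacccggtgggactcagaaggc
EZH1: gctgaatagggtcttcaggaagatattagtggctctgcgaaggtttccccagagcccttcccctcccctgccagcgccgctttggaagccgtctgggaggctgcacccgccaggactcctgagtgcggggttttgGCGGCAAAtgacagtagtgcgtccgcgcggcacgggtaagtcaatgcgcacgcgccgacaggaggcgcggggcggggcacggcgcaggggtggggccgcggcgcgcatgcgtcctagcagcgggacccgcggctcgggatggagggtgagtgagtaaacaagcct
SUZ12: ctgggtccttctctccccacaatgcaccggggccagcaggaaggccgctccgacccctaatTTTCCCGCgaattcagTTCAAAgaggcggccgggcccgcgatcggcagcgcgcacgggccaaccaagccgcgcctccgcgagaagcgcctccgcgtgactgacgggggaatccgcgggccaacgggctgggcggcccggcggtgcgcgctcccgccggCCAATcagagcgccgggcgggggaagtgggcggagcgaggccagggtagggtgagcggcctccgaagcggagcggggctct
EZH2 held TTTGGCGC once and CCAAT, or its reverse complement ATTGG, 4 times. EZH1 held GCGGCAAA, the reverse complement of TTTGCCGC, and neither of the other elements. SUZ12 held TTTCCCGC, TTCAAA, the reverse complement of the CHR letters, and CCAAT. CBX7 and EED held the CCAAT letters once each and no E2F-like letters. The remaining windows, among them the other EZH2 window, held none of the elements. Of 35116 human promoter windows of this length in the same table, 3.31% held E2F-like letters, 15.2% the CHR letters and 34.6% the CCAAT letters. EZH1 and EZH2 shared E2F-like letters and went in opposite directions in senescent cells. The part of these letters in the changes was not tested.

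EZH1, BMI1, RNF2 and CBX2 rose in senescent cells with the hairpin against TXNRD1, and none of the 9 genes fell. The test called 4 of 9 genes higher and 0 lower, where 50.7% of all genes tested were called, 25.8% higher and 24.8% lower. The libraries did not overlap for 5 of the 9 genes, against 55.4% of all genes. The median log2 change of the 9 genes was 0.34, against -0.012 over all genes tested. The senescent control libraries also enter the senescence comparison, so the values of both are given side by side and not correlated.

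EZH1 had the smallest adjusted p of the 9. It had 65.9, 69.0 and 66.5 CPM in shTXNRD1 libraries, against 37.3, 37.4 and 40.1 CPM in senescent control libraries. The 3 hairpin libraries lay close to each other and above every other library of the series. The level was 1.76-fold higher, a log2 change of 0.81 ± 0.053 (adjusted p = 2.4e-08), and it was called under all 18 alternatives with values of 0.76 to 0.87. EZH2 had 7.80, 10.2 and 11.9 CPM in shTXNRD1 libraries and 8.15, 7.27 and 8.40 CPM in senescent control libraries. These overlapped, and the log2 change of 0.33 ± 0.15 did not pass (adjusted p = 0.088), except without shTXNRD1 replicate 1 (0.47, adjusted p = 0.012, in a range of 0.012 to 0.36 over 18 alternatives).

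BMI1 had 51.8, 52.9 and 64.0 CPM in shTXNRD1 libraries, against 44.2, 41.3 and 43.8 CPM in senescent control libraries, a log2 change of 0.38 ± 0.099 (adjusted p = 0.0049). RNF2 had 26.7, 29.2 and 32.0 CPM in shTXNRD1 libraries and 21.8, 22.6 and 24.9 CPM in senescent control libraries, a log2 change of 0.34 ± 0.087 (adjusted p = 0.0046). For both genes the highest of the hairpin libraries was the one of lowest GC, and the groups did not overlap. With the GC correction BMI1 was at 0.21 (adjusted p = 0.0016) and RNF2 at 0.17 (adjusted p = 0.0044), and both were called under all 18 alternatives (adjusted p 0.0016 to 0.023 for BMI1 and 0.0015 to 0.024 for RNF2). With the counts of the readthrough COMMD3-BMI1 added, the log2 change of BMI1 was 0.23 (adjusted p = 0.011).

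CBX2 had 1.55, 1.44 and 0.942 CPM in shTXNRD1 libraries, from 31, 33 and 19 counts, against 0.689, 0.840 and 0.50 CPM in senescent control libraries, from 17, 17 and 10 counts. The lowest hairpin library stood just above the highest control one. The log2 change of 0.95 ± 0.32 passed the test (adjusted p = 0.023), but not with limma-voom (adjusted p = 0.056) or without senescent control replicate 1 or 3 or shTXNRD1 replicate 1 or 2 (adjusted p = 0.060, 0.085, 0.074 and 0.074). Over 17 alternatives its adjusted p lay between 4.3e-05 and 0.085.

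The remaining 4 genes were not called either. SUZ12 averaged 57.7 ± 7.84 CPM in shTXNRD1 cells and 48.2 ± 1.74 CPM in senescent control cells without overlap (log2 change 0.26 ± 0.11, adjusted p = 0.071), was called without shTXNRD1 replicate 1 (0.34, adjusted p = 0.022) and with SUZ12P1 counts added (0.29, adjusted p = 0.035), and was at 0.050 with the GC correction (adjusted p = 0.41), the extremes over 18 alternatives being 0.018 and 0.41. EED averaged 13.9 ± 2.04 CPM in shTXNRD1 cells and 13.6 ± 1.2 CPM in senescent control cells (log2 change 0.034, 95% interval -0.22 to 0.29, adjusted p = 0.83). CBX7 averaged 7.06 ± 1.66 CPM in shTXNRD1 cells and 6.90 ± 0.422 CPM in senescent control cells (log2 change 0.035, 95% interval -0.30 to 0.37, adjusted p = 0.87). CBX8 averaged 3.67 ± 0.307 CPM in shTXNRD1 cells and 2.92 ± 0.390 CPM in senescent control cells (log2 change 0.34 ± 0.14, adjusted p = 0.053).

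The values of the GC-rich readers moved with the GC correction. With it CBX7 was at 0.40 (adjusted p = 0.0025) and CBX8 at 0.71 (adjusted p = 0.0014), and both were called higher. CBX7 in shTXNRD1 libraries was 8.50, 7.44 and 5.25 CPM, the last in the library of lowest GC. CBX8 was also called without that library alone (0.40, adjusted p = 0.044), without senescent control replicate 2 (0.44, adjusted p = 0.026), with limma-voom (adjusted p = 0.045) and with upper-quartile scaling (adjusted p = 0.029). Over the alternatives the adjusted p of CBX7 lay between 0.0025 and 0.996 and that of CBX8 between 0.0014 and 0.20.

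Tri-1 gave no call among the 9 genes. Of all genes tested 19.9% were called between Tri-1 and DMSO cells, and of the 9 genes 0, with 0 also at an unadjusted p under 0.05 and 0 called by DESeq2 or limma-voom. The median log2 change of the 9 genes was -0.086, against 0.0057 over all genes. EZH1 had 39.9, 38.4 and 40.0 CPM in Tri-1 libraries and 37.9, 40.1 and 38.8 CPM in DMSO libraries, and the 95% interval of its log2 change ran between -0.097 and 0.13. EZH2 had 8.35, 8.09 and 6.13 CPM in Tri-1 libraries and 10.4, 8.28 and 9.38 CPM in DMSO libraries (95% interval -0.65 to 0.014).

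For 2 of the 9 genes, both of PRC1, the Tri-1 and DMSO libraries did not overlap, which was the case for 48.7% of all genes. CBX7 had 6.87, 6.98 and 6.30 CPM in Tri-1 libraries, all below the 7.41, 8.80 and 7.79 CPM of the DMSO libraries (log2 change -0.25 ± 0.16, adjusted p = 0.29). RNF2 had 26.3, 24.6 and 24.7 CPM in Tri-1 libraries, all above the 23.9, 22.6 and 22.2 CPM of the DMSO libraries (log2 change 0.14 ± 0.088, adjusted p = 0.30). Both were called with the GC correction, CBX7 at -0.43 (adjusted p = 0.0025) and RNF2 at 0.26 (adjusted p = 0.00038), within ranges of the adjusted p over 18 alternatives of 0.0025 to 0.54 for CBX7 and 0.00038 to 0.57 for RNF2. The 95% intervals of the other genes were -0.35 to 0.16 for EED, -0.33 to 0.16 for SUZ12, -0.21 to 0.22 for BMI1, -0.92 to 0.33 for CBX2 and -0.24 to 0.35 for CBX8.

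The effects of the hairpin and of Tri-1 were compared directly by an interaction term, which called 4 of the 9 genes where 41.7% of all genes were called. EZH1 rose 0.79 ± 0.075 more on the log2 scale under the hairpin than under Tri-1 (adjusted p = 2.2e-06) and was called under all 24 alternatives. EZH2 differed by 0.65 ± 0.22 (adjusted p = 0.028), BMI1 by 0.38 ± 0.14 (adjusted p = 0.043) and CBX2 by 1.25 ± 0.43 (adjusted p = 0.032). DESeq2 and limma-voom ended the calls of BMI1 (adjusted p = 0.053 and 0.051) and CBX2 (adjusted p = 0.055 and 0.059) and kept those of EZH1 and EZH2. Leaving out 1 library at a time ended the call of EZH2 in 6 of 12 cases, namely senescent control replicate 2, shTXNRD1 replicates 2 and 3, DMSO replicates 1 and 3 and Tri-1 replicate 3, with values of 0.50 to 0.79 over the 12. It ended the calls of BMI1 and CBX2 in 8 of 12 cases each, with values of 0.27 to 0.43 and of 1.08 to 1.43. BMI1 stayed called only without shTXNRD1 replicate 1 or 2, DMSO replicate 3 or Tri-1 replicate 1, and CBX2 only without senescent control replicate 2, shTXNRD1 replicate 3, DMSO replicate 1 or Tri-1 replicate 1. With the GC correction BMI1 was at 0.073 (adjusted p = 0.42), and without the lowest-GC library of the shTXNRD1, DMSO and growing control groups EZH2 was at 0.43 (adjusted p = 0.095) and BMI1 at 0.24 (adjusted p = 0.053). The GC correction also called CBX7 (0.83, adjusted p = 9.6e-05, against 0.29 and 0.32 without it) and CBX8 (0.82, adjusted p = 0.0085, against 0.28 and 0.26). Over the alternatives the adjusted p lay between 0.0041 and 0.095 for EZH2, between 0.016 and 0.42 for BMI1, between 5.6e-05 and 0.077 for CBX2, between 9.6e-05 and 0.65 for CBX7 and between 0.0085 and 0.55 for CBX8. Each treatment was set against its own control group, and for CBX2 these differed. CBX2 averaged 1.31 CPM in shTXNRD1 cells and 1.26 CPM in Tri-1 cells. It averaged 0.677 CPM in senescent control cells and 1.54 CPM in DMSO cells.

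DMSO cells were also set against senescent control cells, for which the labels name no solvent. CBX2 had 1.40, 1.58 and 1.63 CPM in DMSO libraries, against 0.689, 0.840 and 0.50 CPM in senescent control libraries, so the DMSO libraries were all higher. It was the 1 of the 9 genes called (log2 change 1.18 ± 0.31, adjusted p = 0.019), where 16.2% of all genes were called. It was no longer called when 1 of 4 libraries was left out, senescent control replicate 1 or 3 or DMSO replicate 2 or 3 (adjusted p = 0.064, 0.082, 0.052 and 0.064). Over 17 alternatives its adjusted p lay between 0.00022 and 0.082. The libraries did not overlap for 3 of the 9 genes, against 39.7% of all genes. Besides CBX2 these were EED (log2 change 0.33, adjusted p = 0.076) and CBX7 (log2 change 0.21, adjusted p = 0.42), both higher in DMSO cells without passing the test. With the GC correction EED was at 0.26 (adjusted p = 0.027), CBX7 at 0.28 (adjusted p = 0.036) and BMI1 at -0.18 (adjusted p = 0.013), and the extremes over the alternatives were 0.016 and 0.23 for EED, 0.036 and 0.70 for CBX7 and 0.013 and 0.78 for BMI1.

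Ratios within a library, which need no scaling between libraries, showed the balance of the 2 PRC2 enzymes. Per kilobase, EZH2 stood at 0.338, 0.301 and 0.325 times EZH1 in senescent control libraries, against 1.43, 1.25 and 1.29 times in growing control libraries. Per kilobase of merged exon, EZH2 was thus the more abundant in growing cells and EZH1 in senescent cells. The order in growing cells depends on these lengths (4522 bases for EZH2 and 6988 for EZH1). By counts alone EZH2 stood at 0.925, 0.807 and 0.833 times EZH1 in growing control libraries. In shTXNRD1 libraries EZH2 stood at 0.183, 0.230 and 0.278 times EZH1, all below the senescent control libraries. In Tri-1 libraries it was at 0.325, 0.327 and 0.238 times and in DMSO libraries at 0.426, 0.320 and 0.374 times, which overlapped.

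The log2 ratio of EZH2 to EZH1 counts differed by -2.04 between senescent and growing control cells and by -0.50 between shTXNRD1 and senescent control cells. In both cases the libraries did not overlap, and the exact two-sided permutation test gave p = 0.1, the smallest it can give with 3 libraries against 3. The log2 ratio of CBX7 to CBX8 was 1.24 ± 0.11 in senescent control cells and 0.12 ± 0.17 in growing control cells (difference 1.12, exact permutation p = 0.1). It was 1.13 ± 0.090 in Tri-1 cells and 1.44 ± 0.057 in DMSO cells (difference -0.31, exact permutation p = 0.1), but DMSO cells also stood above senescent control cells (1.24 ± 0.11) by 0.20 (exact permutation p = 0.1). It was 0.91 ± 0.25 in shTXNRD1 cells against 1.24 ± 0.11 in senescent control cells (difference -0.33, exact permutation p = 0.2). Adjusted over the 8 ratio tests, no p was below 0.16. CBX7 and CBX8 transcripts have nearly the same GC content, and EZH2 is lower in GC than EZH1.

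**Figure D3:**
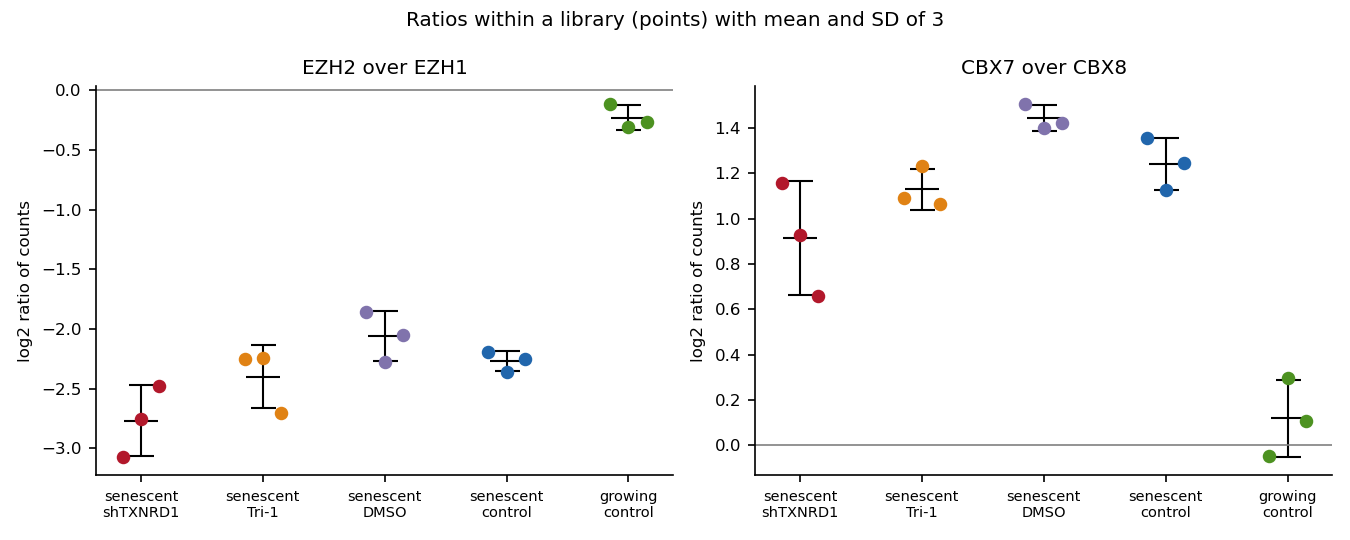
Log2 ratio of counts within a library (vertical axes, with a separate scale in each panel) for EZH2 over EZH1 and CBX7 over CBX8, with points for libraries and black bars for the mean and SD of 3. The EZH2 to EZH1 ratio averages -2.77 in shTXNRD1 cells, -2.27 in senescent control cells and -0.23 in growing control cells.

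Other subunits of PRC2 are accessory proteins that steer the complex. Of 9 accessory genes tested, 1 rose and 5 fell in senescent control against growing control cells (median -0.24). Of all genes tested 56.9% were called there, 50.7% under the hairpin and 19.9% under Tri-1, and these shares also apply to the lists below. RBBP7, a histone chaperone (-0.82, adjusted p = 1.0e-06), and PHF19, which recruits PRC2 to chromatin (-0.75, adjusted p = 0.00054), fell, whereas PHF1, its relative, rose by 0.55 (adjusted p = 0.00043), a call that the GC correction ended (0.14, adjusted p = 0.30). Under the hairpin 4 of the 9 rose and 3 fell (median -0.10). MTF2 rose by 0.86 (adjusted p = 2.2e-06), while PHF19 (-1.40, adjusted p = 4.8e-06) and PHF1 (-0.85, adjusted p = 1.2e-05) fell. After the GC correction PHF1 was at -0.45 under the hairpin, and the counts became 0 higher and 3 lower in senescence and 4 higher and 5 lower under the hairpin. PHF19 averaged 7.17 ± 1.32 CPM in shTXNRD1 cells and 18.9 ± 2.63 CPM in senescent control cells. Under Tri-1 3 of the 9 fell and none rose (median -0.17), namely LCORL (-0.53, adjusted p = 0.0068), JARID2, a cofactor that helps PRC2 bind chromatin (-0.43, adjusted p = 0.00022), and MTF2 (-0.34, adjusted p = 0.015). The call of MTF2 ended without DMSO replicate 1 (adjusted p = 0.075) or Tri-1 replicate 3 (adjusted p = 0.061), in a range of 0.0034 to 0.075.

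Of 11 other genes of canonical PRC1, 2 rose and 4 fell in senescent control against growing control cells (median -0.094). The share called over all genes tested was 56.9% there, 50.7% under the hairpin and 19.9% under Tri-1. SCML2 (-1.32, adjusted p = 4.0e-05), SFMBT1 (-1.18, adjusted p = 4.9e-05) and PHC1 (-0.98, adjusted p = 1.7e-08), which all carry the SAM domain that links Polycomb proteins, fell the most. Under the hairpin 3 rose and 2 fell (median 0.12). RING1, the other ligase of PRC1 and the counterpart of RNF2, averaged 14.5 ± 1.42 CPM in shTXNRD1 cells and 28.8 ± 1.27 CPM in senescent control cells (log2 change -0.99 ± 0.10, adjusted p = 2.3e-06; -0.57 with the GC correction), while RNF2 rose. SCML2 (1.27, adjusted p = 8.3e-05) and SFMBT1 (0.81, adjusted p = 0.0017) rose under the hairpin. Under Tri-1 PHC1 alone changed (-0.29, adjusted p = 0.0069), with a median of 0.039 over the 11.

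Of 16 genes of variant PRC1, which lacks CBX proteins, 8 rose and 4 fell in senescent control against growing control cells (median 0.10). Calls over all genes tested made up 56.9% there, 50.7% under the hairpin and 19.9% under Tri-1. AUTS2 fell by 1.48 (adjusted p = 2.6e-06), and the co-repressors BCORL1 (1.08, adjusted p = 0.00041) and BCOR (0.89, adjusted p = 2.2e-07) rose. Under the hairpin 4 rose and 5 fell (median 0.057), with YAF2 (-0.82, adjusted p = 0.00028), BCOR (-0.55, adjusted p = 3.9e-05) and BCORL1 (-0.50, adjusted p = 0.0496) lowest, although BCORL1 was not called under 10 of 18 alternatives (adjusted p 0.00085 to 0.27), among them those without senescent control replicate 1 or 2 or shTXNRD1 replicate 2 or 3. Under Tri-1 KDM2B (0.29, adjusted p = 0.032) and PCGF1 (0.28, adjusted p = 0.048) rose (median of the 16, 0.0034), but KDM2B was called under 8 of 18 alternatives (adjusted p 0.020 to 0.16) and PCGF1 under 3 of 18 (adjusted p 0.044 to 0.21). Leaving out any 1 of the 6 libraries ended the call of KDM2B, and any but Tri-1 replicate 1 that of PCGF1.

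Polycomb marks are removed by an H2A deubiquitinase complex and by H3K27 demethylases. Of 10 genes of that deubiquitinase complex, 3 rose and 0 fell in senescent control against growing control cells (median 0.17), where 56.9% of all genes tested were called. The 3 were FOXK2 (0.40, adjusted p = 0.017), OGT (0.27, adjusted p = 0.0099) and ASXL2 (0.23, adjusted p = 0.023). The call of FOXK2 ended without growing control replicate 1 (0.31, adjusted p = 0.079) or senescent control replicate 2 (0.37, adjusted p = 0.058), in a range of 0.0022 to 0.079, and that of ASXL2 without growing control replicate 2 or 3 or senescent control replicate 3 (adjusted p = 0.087, 0.070 and 0.090). The GC correction made the count 4 higher and 2 lower. Under the hairpin 4 rose and 1 fell (median -0.15), where 50.7% of all genes tested were called. Among the higher ones were ASXL3 (1.99, adjusted p = 0.00047) and ASXL2 (0.41, adjusted p = 0.00054), which activate the deubiquitinase. OGT (0.53, adjusted p = 6.1e-05), a sugar transferase bound to the complex, was another. ASXL3 rested on 165 counts over all 15 libraries, beside 27724 for ASXL2, so the size of its change is uncertain. Under Tri-1 MBD5 alone fell (-0.38, adjusted p = 0.0043, median of the 10 genes 0.12), where 19.9% of all genes were called. KDM6B, a demethylase of the PRC2 mark, averaged 8.80 ± 0.780 CPM in senescent control cells and 3.30 ± 0.918 CPM in growing control cells (log2 change 1.42 ± 0.24, adjusted p = 0.00018; 0.91 with the GC correction). Its relative KDM6A was not called (-0.058, adjusted p = 0.46) but was called higher with the GC correction (0.13, adjusted p = 0.022, in a range of 0.022 to 0.97). Under the hairpin neither passed (KDM6B -0.51, adjusted p = 0.086, KDM6A 0.16, adjusted p = 0.0503), although without shTXNRD1 replicate 1 both were called (KDM6B -0.66 and KDM6A 0.18, adjusted p = 0.044 each, in ranges of 0.032 to 0.97 and of 0.013 to 0.93). After the GC correction KDM6B was at -0.0065 under the hairpin. Under Tri-1 KDM6A was called at -0.19 (adjusted p = 0.049), but under 5 of 18 alternatives and none that left out 1 library (adjusted p 0.0095 to 0.22), and KDM6B was at 0.40 (adjusted p = 0.26).

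**Figure D4:**
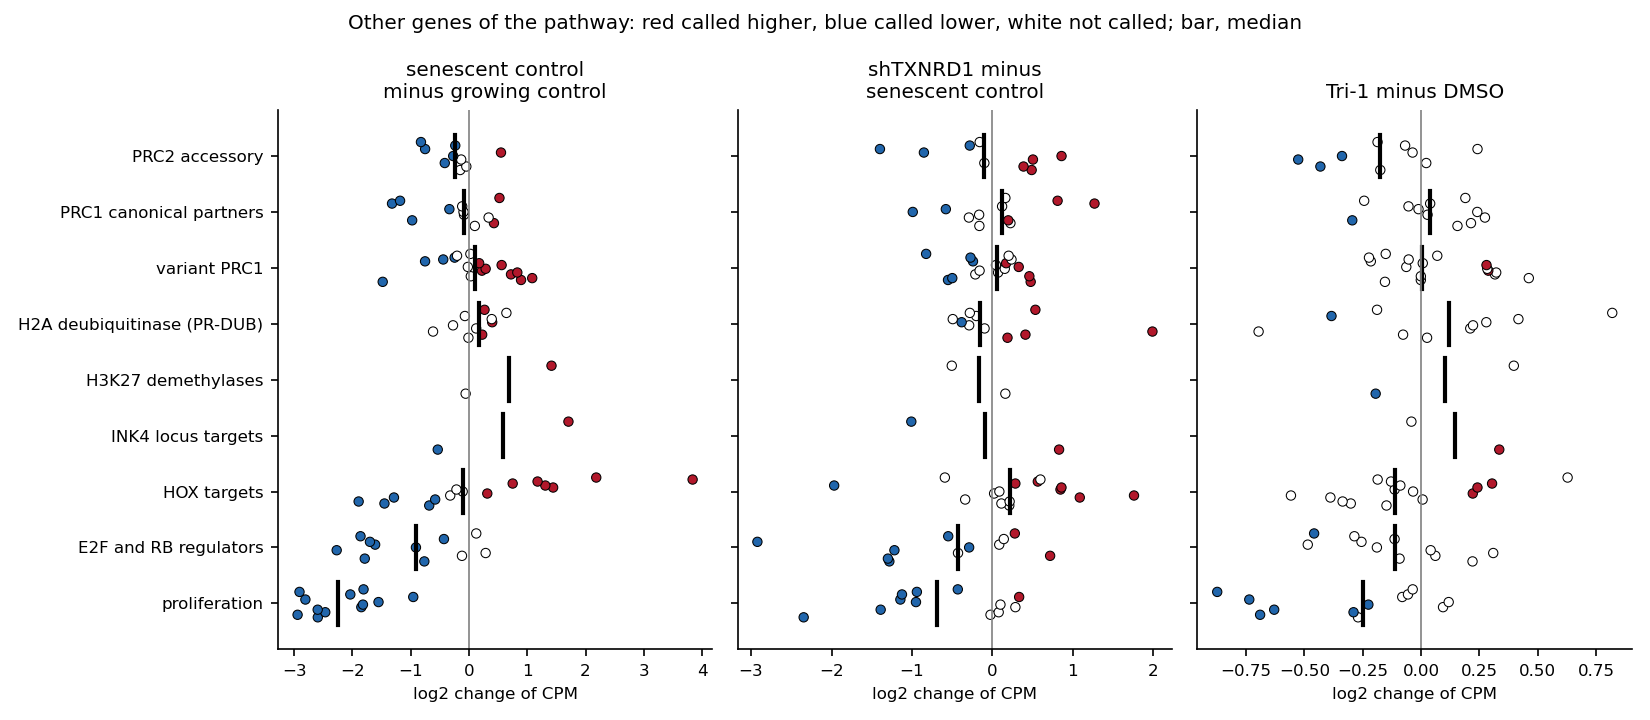
Log2 change of CPM (horizontal axes, with a separate scale in each panel) of every tested gene of the 9 lists of other Polycomb and cell cycle genes, with a black bar at the median of a list, red for called higher, blue for called lower and white for not called. All 12 proliferation genes lie below 0 in senescent control minus growing control cells.

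The 2 genes of the INK4 locus, textbook targets of these complexes, went apart. CDKN2B averaged 77.7 ± 4.54 CPM in senescent control cells and 23.8 ± 1.45 CPM in growing control cells (log2 change 1.71 ± 0.068, adjusted p = 3.7e-11). CDKN2A averaged 10.8 ± 0.521 CPM in senescent control cells and 15.7 ± 0.891 CPM in growing control cells and was thus lower in senescent cells (log2 change -0.54 ± 0.085, adjusted p = 9.0e-05). Under the hairpin each went the other way: CDKN2B averaged 38.6 ± 2.56 CPM in shTXNRD1 cells, below senescent control cells (log2 change -1.01 ± 0.066, adjusted p = 2.4e-08), and CDKN2A averaged 19.2 ± 1.12 CPM, above them (0.83 ± 0.085, adjusted p = 2.0e-06). Under Tri-1 CDKN2A averaged 21.8 ± 0.580 CPM, against 17.3 ± 1.72 CPM in DMSO cells (0.34 ± 0.083, adjusted p = 0.011), and CDKN2B 131 ± 1.73 CPM, against 135 ± 4.87 CPM in DMSO cells (-0.041, adjusted p = 0.70). The 2 reference groups differed, since both genes were called higher in DMSO than in senescent control cells (CDKN2A 17.3 against 10.8 CPM, CDKN2B 135 against 77.7 CPM). The Tri-1 call of CDKN2A ended with the GC correction (0.14, adjusted p = 0.62) and without DMSO replicate 1 (0.26, adjusted p = 0.055), in a range of 0.0088 to 0.65. After the GC correction CDKN2A was at -0.99 in senescence and 1.27 under the hairpin. A count per gene cannot tell the transcripts of CDKN2A apart, and without strand in the counting reads of an antisense gene cannot be told from those of its partner at this locus or in the HOX clusters.

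Of 39 HOX genes, which Polycomb complexes keep in their spatial pattern, 15 passed the filter. In senescent control against growing control cells 7 rose and 5 fell (median -0.11). The share called over all genes tested was 56.9% in that comparison, 50.7% under the hairpin and 19.9% under Tri-1. HOXA3 fell by 1.89 (adjusted p = 7.7e-06). HOXC8 rose by 2.18 (adjusted p = 0.00041), but it had only 151 counts over all 15 libraries, so this size is uncertain. HOXC6 had 31 counts over the 3 senescent control libraries and 2 over the 3 growing control ones, too few for a fold. Under the hairpin 6 rose and 1 fell (median 0.21). HOXB6 averaged 8.42 ± 2.73 CPM in shTXNRD1 cells and 32.9 ± 1.94 CPM in senescent control cells (log2 change -1.97 ± 0.19, adjusted p = 1.5e-06), whereas HOXA7 (1.76, adjusted p = 5.8e-05) and HOXA5 (1.09, adjusted p = 7.7e-06) rose. Under Tri-1 HOXB7 (0.30, adjusted p = 0.040), HOXB5 (0.24, adjusted p = 0.013) and HOXB2 (0.22, adjusted p = 0.045) rose (median of the 15 genes -0.11), and the GC correction turned the split to 1 higher and 3 lower. The call of HOXB7 ended when any 1 of the 6 libraries was left out (adjusted p 0.018 to 0.16 over 18 alternatives), that of HOXB5 without DMSO replicate 1 or Tri-1 replicate 3 (0.012 to 0.20) and that of HOXB2 without any but DMSO replicate 1 (0.0043 to 0.62).

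**Figure D5:**
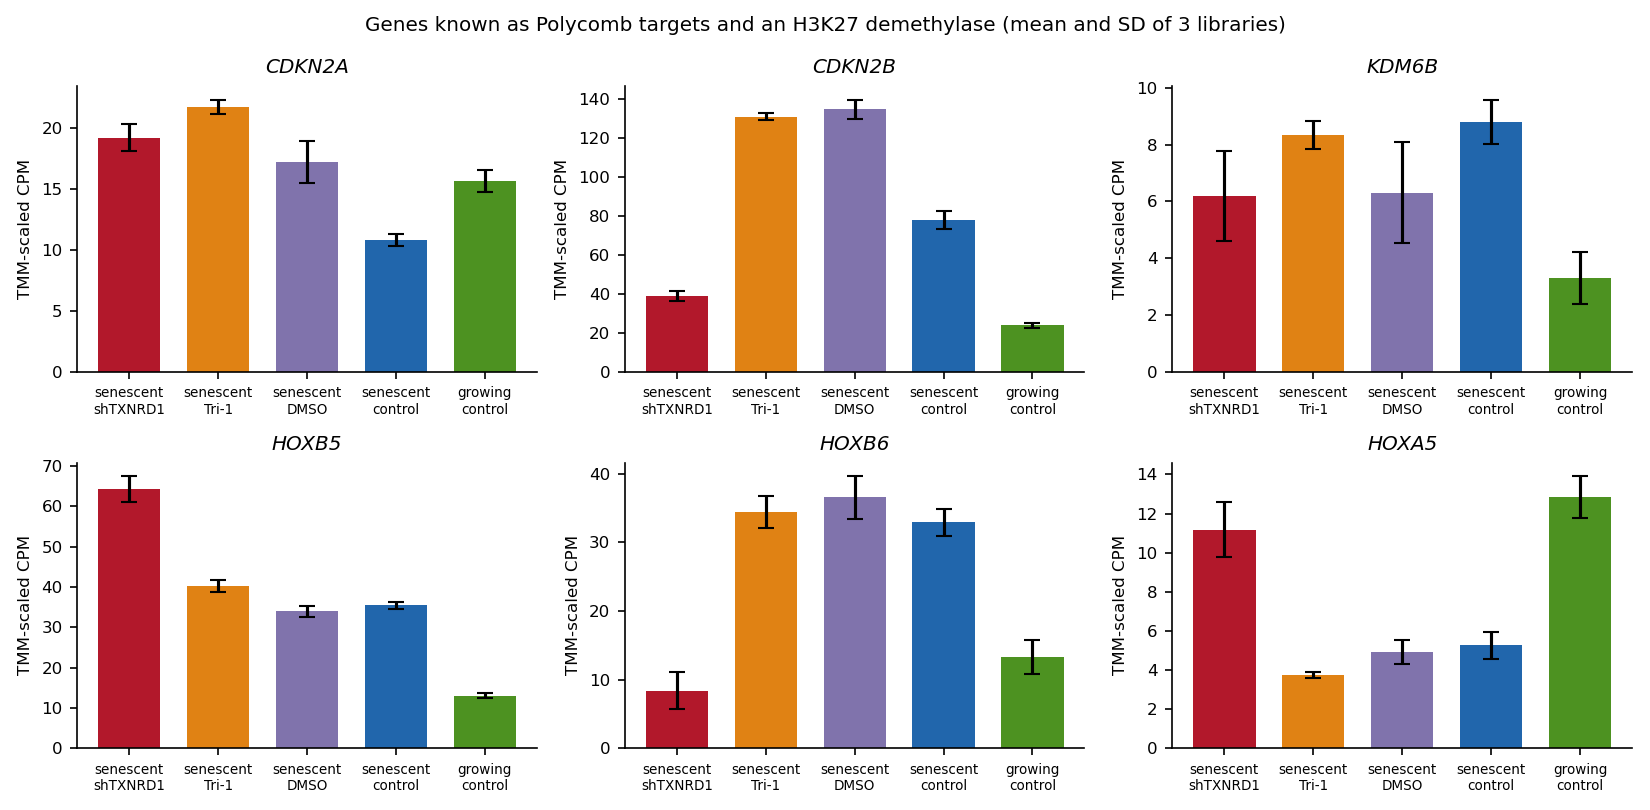
TMM-scaled CPM (vertical axes, starting at 0) of CDKN2A, CDKN2B, the demethylase KDM6B and 3 HOX genes, with bars for the mean of 3 libraries and whiskers for the SD. CDKN2B is at 38.6 CPM in shTXNRD1 cells, against 77.7 CPM in senescent control cells, and CDKN2A at 19.2 against 10.8 CPM.

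Markers of dividing cells fell with EZH2 in senescence. Of all genes tested 29.5% were called lower in senescent control than growing control cells and 24.8% lower under the hairpin. Under Tri-1 19.9% were called in either direction. All 12 proliferation genes fell in senescent control against growing control cells (median -2.25), with MKI67 (-2.81), TOP2A (-2.91) and CCNA2 (-2.94) among them. Of 11 genes of the E2F and RB pathway, 8 fell and 0 rose (median -0.91), with the transcription factors FOXM1 (-2.27) and E2F2 (-1.79) and the pocket protein RBL1 (-1.86) lowest. EZH2 fell by 1.70, and the part of these genes in its change was not tested. Under the hairpin 7 of the 12 proliferation genes fell and 1 rose (median -0.68), with BIRC5 (-2.35), CDK1 (-1.39) and MKI67 (-1.14) lowest. Of the E2F and RB genes 6 fell and 2 rose (median -0.43), with MYBL2 (-2.92), E2F2 (-1.30) and E2F1 (-1.28) lowest, while EZH2 was at 0.33 without a call. Under Tri-1 6 of the 12 fell and 0 rose (median -0.25), with TOP2A (-0.87), MKI67 (-0.74) and CCNA2 (-0.69) lowest. RBL2 alone of the 11 changed (-0.46, median -0.11), and EZH2 was at -0.32 without a call. The adjusted p of the genes named here, other than EZH2, lay between 2.5e-13 and 0.0042. In bulk samples a lower level in each cell and fewer cells with the transcript cannot be told apart.

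The genes whose log2 CPM was most like that of EZH2, BMI1 or CBX7 over the 15 libraries were taken from the 12139 tested genes whose log2 CPM averaged 1 or more. For EZH2 they were EML4 (Pearson r = 0.986), VRK1 (0.984) and WDHD1 (0.983), for BMI1 MAK16 (0.981), VBP1 (0.980) and ERLIN2 (0.974), and for CBX7 COL5A3 (0.972), HLA-E (0.961) and LEMD2 (0.961). Among the 9 genes the highest r was 0.898, between BMI1 and RNF2, and the lowest -0.836, between EZH2 and CBX7. These values describe 15 libraries that share groups, depth and base composition, and carry no test.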

How the data were processed

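RNA-seq of 15 libraries was analysed from the count table that the authors deposited, which holds whole-number counts for 57736 Ensembl gene identifiers. RSEM 1.2.3, DESeq2 and the builds hg19 and mm10 are named in the submitters' processing notes. The strand setting of the counting and its handling of shared reads are not stated. Symbols were found for 52301 identifiers, of which 51959 from a table of gene names. Libraries held 18033076 to 28909046 counts, and 26318 genes were at 0 in all of them.

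Genes were filtered by group with filterByExpr, counts were scaled by TMM, and all 5 groups were fitted together with edgeR 4.0.16 (R 4.3.3), using the robust quasi-likelihood F test with 10 residual degrees of freedom. Adjusted p-values are Benjamini-Hochberg over all 15994 genes tested, and a gene was called under 0.05. Errors of log2 changes are SE, and errors of CPM are SD over 3 libraries. Ratios of counts used a pseudocount of 0.5 and exact two-sided permutation tests. Levels per kilobase and GC content used merged exons and transcripts of an annotation matched by gene identifier, and 96.49% of the genes tested had a GC value. The GC correction is an offset per library from a smooth curve of counts on GC.

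Alternatives were RLE and upper-quartile scaling, no filter, a mean CPM of at least 5, DESeq2 1.42.0, limma-voom (limma 3.58.1), a replicate block, the GC correction, both together, the compared groups alone and each library left out. After seeing the data, sums with copy and readthrough genes and a fit without the lowest-GC library of the growing control, shTXNRD1 and DMSO groups were added. The members and lists were chosen with earlier results of these data known. Beside the 9 genes, the 3 called genes with the largest absolute log2 change in each list and comparison are named, as are KDM6A, KDM6B, CDKN2A, CDKN2B, MKI67 and TXNRD1, and the 3 tested genes most like EZH2, CBX2, CBX7 and BMI1 by Pearson r; those for CBX2 and 1 marker are not reported here. The script was tested on simulated data.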

Additional observations from a re-analysis of the deposited data

Results flagged for a closer look

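The effect of the hairpin (shTXNRD1 minus senescent control) and that of Tri-1 (Tri-1 minus DMSO) differed for 4 of the 9 genes by the test of the difference itself in edgeR's quasi-likelihood fit. On the log2 scale the difference was 0.79 for EZH1, 0.65 for EZH2, 0.38 for BMI1 and 1.25 for CBX2, positive where the hairpin's effect was the higher one. EZH1 rose under the hairpin (0.81), and its Tri-1 change was 0.017. EZH2 was at 0.33 under the hairpin and at -0.32 under Tri-1, and neither passed its own test. CBX2 averaged 1.31 CPM in shTXNRD1 cells and 1.26 CPM in Tri-1 cells. Its control groups were farther apart, at 0.677 CPM in senescent control cells and 1.54 CPM in DMSO cells. The difference of EZH1 was called under all 24 alternatives, that of EZH2 under 17 of 24, that of BMI1 under 9 of 24 and that of CBX2 under 12 of 23.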

How the results depend on the processing

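Over all alternatives and the 5 comparisons, 724 of the changes of the 9 genes kept their direction and side of the threshold, 35 became called, 51 lost their call and 44 changed sign, none of these a called value. The 56 ratios kept their direction. Every replicate number is shared by all groups, and the labels do not say whether the numbers pair the samples. Of 30 pairs of same-numbered libraries, 6 had deviations correlated above 0.1 (r between -0.61 and 0.42). Growing control replicate 1 and shTXNRD1 replicate 3, each the lowest in GC of its group, had r = 0.63. Since libraries of similar GC were thus alike, these correlations cannot tell whether the samples were paired. The replicate block lowered the count of the 9 genes that differed between hairpin and Tri-1 to 2, ending the calls of BMI1 and CBX2, as did DESeq2 and limma-voom, against 4, and leaving out 1 library gave 1 to 4.

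With the GC correction Tri-1 gave 5624 calls (5364 with the replicate block as well) and the compared groups alone 5381, against 3176, and 2 of the 9 genes with either GC fit, against 0. DMSO gave 5370 calls with the GC correction, 5084 with block and GC correction and 3981 without the lowest-GC library of the growing control, shTXNRD1 and DMSO groups, against 2595. Of the 9 genes DMSO then gave 4 with either GC fit and 2 for the compared groups alone, against 1, and 0 to 1 without 1 library.

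Signs turned for small values. With the GC correction EED was at -0.16 under the hairpin (-0.17 with the block) and, with or without the block, EED was at 0.060 and 0.057, SUZ12 at 0.074 and 0.075 and CBX8 at -0.11 under Tri-1, and the difference between hairpin and Tri-1 was -0.22 for EED, -0.023 for SUZ12 and -0.088 for RNF2. KDM6A in senescence was at 0.13 with either GC fit and 0.027 with a mean CPM of at least 5. BMI1 under Tri-1 was at -0.00098 with DESeq2, -0.0013 with RLE, -0.00041 for the compared groups alone, -0.032 with copies summed, -0.023 with a mean CPM of at least 5 and -0.022 with upper-quartile scaling. EZH1 under Tri-1 was at -0.011 and -0.010 and RNF2 under DMSO at 0.0029 and 0.0025 with those last 2 settings, and RNF2 at 0.015 for the compared groups alone. Without those lowest-GC libraries the hairpin value of EED was -0.091, the Tri-1 values of EZH1 and CBX8 -0.0016 and -0.019, and the difference for EED -0.027. Leaving out 1 library gave -0.095 to 0.093 for EED and -0.13 to 0.20 for CBX7 under the hairpin, -0.0020 to 0.039 for EZH1, -0.048 to 0.052 for BMI1 and -0.021 to 0.15 for CBX8 under Tri-1, -0.00041 to 0.19 for the difference of EED, and -0.080 to 0.12 for CBX8 and -0.054 to 0.043 for RNF2 under DMSO. The cause was not tested. The ratio of BMI1 to PCGF2 was not run, since no identifier matched PCGF2. CBX2 and CBX8 have no value with a mean CPM of at least 5, which drops them. With 10 to 79 counts in a library, depth limits CBX2 the most.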
